A study of Mus musculus with 12 samples.

Results

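Collagens are the triple-helical proteins that give the extracellular matrix its fibres, sheets and anchors. Each molecule is wound from chains that are encoded by separate genes, so a cell needs matching amounts of the partner chains of a type. Fibril-forming collagens build tendon, bone and cartilage, the network-forming type IV collagens build the basement membrane, on which the early epiblast rests, and smaller families sit on fibrils, in networks or in the cell membrane. Chains are hydroxylated, folded and exported from the endoplasmic reticulum, trimmed by proteases and cross-linked by lysyl oxidases. The genes encoding the chains were chosen by name: protein-coding genes whose symbol is Col, a number, a and a number. This rule took 44 of the 51467 genes in the deposited count table, and each of the 44 had at least 1 read in some library.

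The study followed mouse embryonic stem cells (ESCs) in the naive state into epiblast-like cells (EpiLCs) and separated changes in transcription from changes in mRNA stability. Per the study's methods, all cells came from a single V6.5 ESC line that carries a miR-290-mCherry and a miR-302-GFP reporter, so no other genetic background was sampled. ESC medium held serum, LIF and 2i (PD0325901 and CHIR99021), and the EpiLC groups were collected about 56 h after LIF/2i medium was taken away, so the cell types differ in medium as well as in state. All 4 groups were exposed to 500 µM 4-thiouridine (4sU), which enters newly made RNA, for 30 min. Labeled RNA was pulled down and sequenced as nascent RNA (4sU libraries), and unselected RNA depleted of ribosomal RNA was sequenced in parallel (total libraries). There were 3 libraries for each of the 4 groups: ESC 4sU, ESC total, EpiLC 4sU and EpiLC total. Levels are given as reads scaled to 1000000 per library after TMM normalization (TMM CPM), and each mean ± SD is over 3 libraries.

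The labels matched the markers of both states. Of 10 naive genes, 10 had lower mRNA in EpiLCs, and 6 of 7 genes of the formative and primed state had higher mRNA. Library totals ran from 3097693 to 5385644 reads for 4sU and from 9300845 to 21975684 for total RNA, so nascent values of the weaker collagens rest on few reads. The ESC replicate 3 libraries stood apart: in total RNA the chi-square per degree of freedom was 24.8 and 25.4 against the other ESC libraries and 2.39 between those. Calls that change without them are given with the result. The study calls its replicates biological, but the labels do not say that they were separate cultures, so p-values measure the spread between these libraries.

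Collagen mRNA made up a larger share of the EpiLC transcriptome than of the ESC transcriptome. Summed over all 44 genes, the level was 592 ± 14.1 TMM CPM in ESC total and 1393 ± 46.3 in EpiLC total RNA. In nascent RNA the sum was 165 ± 18.1 TMM CPM in ESCs and 289 ± 24.0 in EpiLCs. A single gene, Col18a1, held the largest share of these reads. It encodes the basement membrane proteoglycan whose C-terminal fragment is endostatin. Col18a1 held 58.2 ± 6.27% of the collagen reads in ESC total and 62.0 ± 0.574% in EpiLC total RNA, and 39.9 ± 9.23% and 47.6 ± 1.56% in 4sU RNA. The type IV pair Col4a1 and Col4a2 held 14.8 ± 1.91% and 20.3 ± 0.684%. The smaller shares were redistributed: Col2a1 held 1.02 ± 0.118% of collagen reads in ESC total and 5.63 ± 0.0979% in EpiLC total RNA, while Col9a2 held 5.23 ± 0.686% and 0.637 ± 0.127%. Col5a1 held 8.37 ± 1.96% and 3.44 ± 0.116%, although its own level was nearly the same in both. In bulk RNA, fewer cells with a transcript and less of it per cell cannot be told apart.

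Of the 44 genes, 21 passed the expression filter of at least 3 CPM in at least 3 libraries and were tested with limma-voom together with all 14731 genes kept. The call required both a Benjamini-Hochberg adjusted p below 0.05 and a log2 fold change beyond 1 in size. For mRNA (EpiLC total against ESC total), 13 collagen genes were called higher, where 16.3% of all genes kept were called higher, and 4 were called lower, where 11.2% of all were. The largest adjusted p among the 13 was 0.0106 (Col11a2, limma-voom) and among the 4 it was 0.000272 (Col17a1, limma-voom). For nascent RNA (EpiLC 4sU against ESC 4sU), 10 were called higher beside 11.9% of all genes, and 4 lower beside 13.5%. The libraries of the cell types did not overlap for 20 of the 21 in total RNA and for 14 in 4sU RNA, where 68.5% and 60.7% of all genes kept did not overlap. These counts are not evidence about the family, because 7 of the 21 passed the filter only through EpiLC libraries and 4 only through ESC libraries, and passing in this way favours a difference in that direction. Of the 10 that passed through both cell types, mRNA was called higher for 6, lower for 1 and in neither direction for 3. By adjusted p alone (limma-voom), 15 were higher and 4 lower for mRNA and 11 and 4 for nascent RNA, where 63.5% and 52.5% of all genes passed in either direction.

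**Figure D1:**
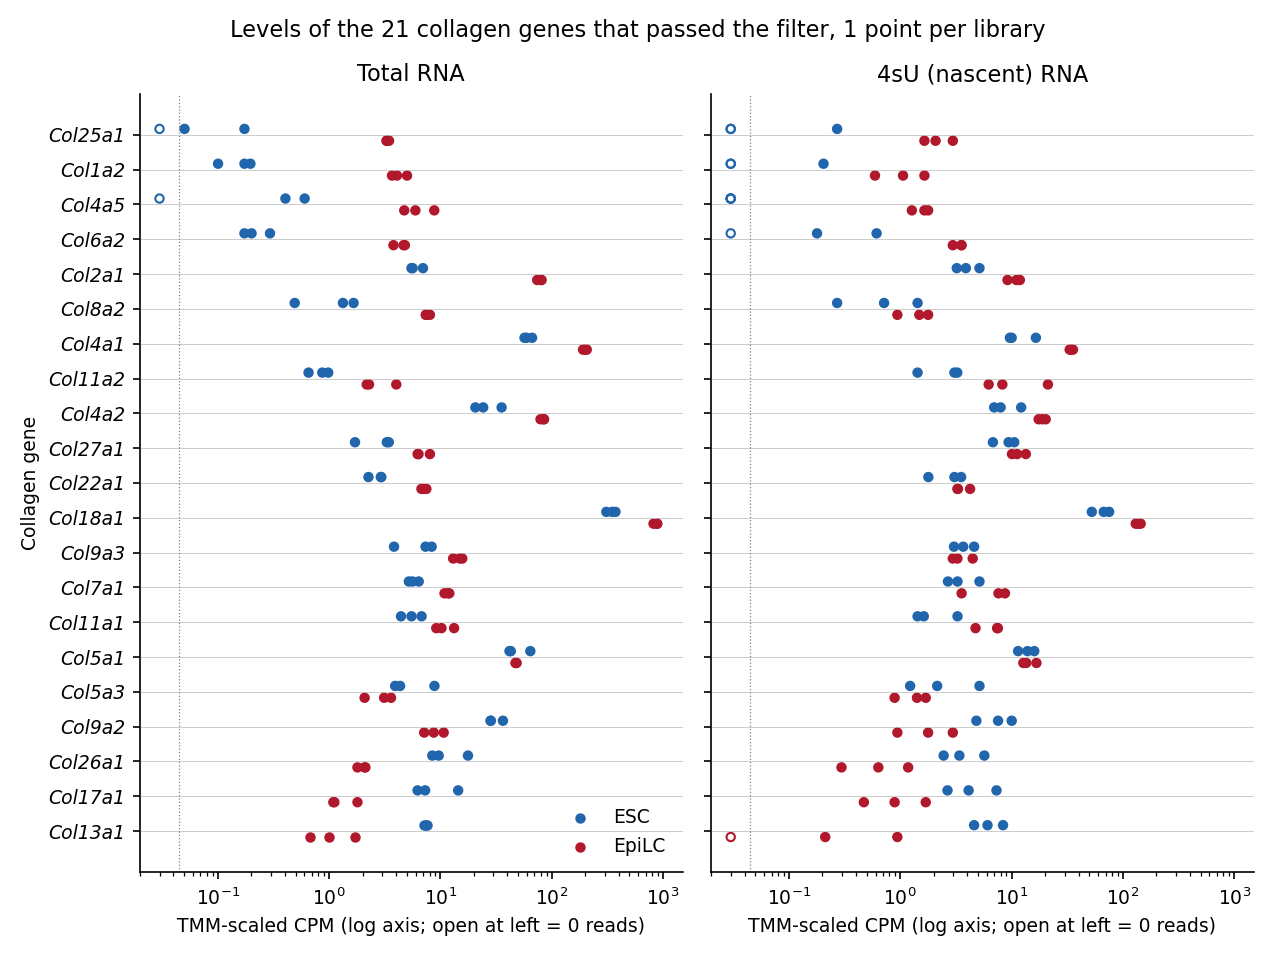
Level of the 21 collagen genes that passed the filter in every library (TMM CPM, log axis), total RNA at left and 4sU RNA at right, ESC in blue and EpiLC in red, ordered by the mRNA change. Open points at the left edge are libraries with 0 reads; Col25a1, Col1a2, Col4a5 and Col6a2 sit near 0 in ESCs, and Col13a1, Col17a1 and Col26a1 are the genes with the largest falls.

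Basement membrane genes included Col18a1 and Col4a1, which had the highest mean TMM CPM of the 44 in total RNA of both cell types. Col4a1 and Col4a2 encode the chains of the common type IV network. Col4a1 measured 57.0, 59.4 and 66.7 TMM CPM in the ESC total libraries and 191, 199 and 206 in the EpiLC total libraries. Its nascent level was 10.02, 9.66 and 16.5 TMM CPM in ESCs and 34.4, 33.3 and 35.6 in EpiLCs. All EpiLC libraries lay above all ESC libraries in both assays, and the change was 1.71 ± 0.090 (SE) for mRNA and 1.59 ± 0.18 for nascent RNA on the log2 scale. Col4a2 went with it, at 20.6, 24.3 and 35.5 TMM CPM in ESC total and 84.8, 79.4 and 85.4 in EpiLC total RNA. In 4sU RNA Col4a2 measured 7.97, 6.98 and 12.2 TMM CPM in ESCs and 20.3, 18.9 and 17.5 in EpiLCs. Again no library crossed, and the log2 change was 1.71 ± 0.14 (SE) for mRNA and 1.15 ± 0.30 for nascent RNA.

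Col18a1 measured 374, 349 and 310 TMM CPM in ESC total RNA and 883, 822 and 887 in EpiLC total RNA. Its nascent level was 75.2, 67.3 and 52.6 TMM CPM in ESCs and 144, 138 and 131 in EpiLCs. The groups were apart in both assays, by 1.33 ± 0.091 (SE) for mRNA and 1.08 ± 0.12 for nascent RNA on the log2 scale. The nascent call was lost without the ESC replicate 3 libraries (log2 change 0.93), through the fold threshold. Its relative in the multiplexin class, Col15a1, had at most 1 read in any library.

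The remaining type IV chains form networks in particular membranes, such as those of the kidney, and were nearly silent in ESCs. Col4a5, on the X chromosome, had 7, 12 and 0 reads in the ESC total libraries and 79, 50 and 60 in the EpiLC total libraries. Its 4sU counts were 0 in all 3 ESC libraries and 7, 6 and 6 in EpiLCs. The mRNA change was 4.44 ± 0.61 on the log2 scale, and nascent Col4a5 was at least 7.28-fold higher in EpiLCs, taking 3 counts over the ESC group as the floor. Col4a6 had 1 read in the ESC total libraries together and 22, 13 and 24 in those of EpiLCs, a ratio of pooled reads, scaled by the effective library sizes, of 94.4 with an exact 95% interval of 16.3 to 3789. Its nascent level was at least 3.45-fold higher, from 0 reads in ESCs and 9 in EpiLCs. Intervals and floors of this kind cover counting error only. Col4a4 rested on 1 and 7 reads in total RNA (ratio 11.2, interval 1.44 to 504), and Col4a3 on 0 and 3 reads, which gives no ratio.

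Type IV genes lie in pairs that start back to back. Col4a4 and Col4a3 on chromosome 1 lie 126 bases apart, and Col4a6 and Col4a5 on the X chromosome lie 1308 bases apart, in the coordinates of the deposited table (mm10). Col4a1 (chromosome 8, minus strand, 11198423 to 11312826) and Col4a2 (plus strand, 11312805 to 11449287) overlap by 22 bases at their first exons. Counting was strand-specific, so reads from this overlap are assigned by strand. The stretch is printed on both strands, with the shared bases in capitals, to show how close the starts of these co-varying genes are (RefSeq, GRCm38.p6, chr8:11312801-11312830).

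Col4a2 strand: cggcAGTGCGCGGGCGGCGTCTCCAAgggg

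Col4a1 strand: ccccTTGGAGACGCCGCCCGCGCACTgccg

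The stretches before 3 genes that rose from few ESC reads (Col4a5, Col4a6 and Col25a1) and before Col13a1, whose nascent fall was the largest of the 21, are printed to show what lies at their starts (RefSeq, GRCm38.p6). They run up to the RefSeq start, except that the Col4a5 stretch stops before the first exon of the deposited annotation. None overlaps an annotated exon. Capitals mark 3 kinds of motif, searched on both strands. The GC box was GGGCGG. The CCAAT box was CCAAT. The TATA box was TATAAA. Col2a1 was missing from the promoter table.

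Col4a5 (chrX:141475169-141475384, plus strand): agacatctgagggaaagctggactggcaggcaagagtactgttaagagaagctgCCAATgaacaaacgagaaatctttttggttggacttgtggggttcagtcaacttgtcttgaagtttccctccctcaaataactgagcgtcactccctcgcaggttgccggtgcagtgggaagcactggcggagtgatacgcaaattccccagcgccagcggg

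Col4a6 (chrX:141474077-141474326, minus strand): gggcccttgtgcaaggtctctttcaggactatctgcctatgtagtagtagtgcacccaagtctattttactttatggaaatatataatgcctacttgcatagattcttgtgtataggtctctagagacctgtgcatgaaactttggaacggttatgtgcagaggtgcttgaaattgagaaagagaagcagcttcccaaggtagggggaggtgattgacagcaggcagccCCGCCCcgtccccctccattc

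Col25a1 (chr3:130180595-130180844, plus strand): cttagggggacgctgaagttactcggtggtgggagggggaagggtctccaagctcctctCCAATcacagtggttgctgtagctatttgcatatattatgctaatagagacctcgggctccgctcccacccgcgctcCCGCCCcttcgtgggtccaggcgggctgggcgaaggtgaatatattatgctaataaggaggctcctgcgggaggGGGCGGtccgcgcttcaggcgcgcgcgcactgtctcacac

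Col13a1 (chr10:61979109-61979358, minus strand): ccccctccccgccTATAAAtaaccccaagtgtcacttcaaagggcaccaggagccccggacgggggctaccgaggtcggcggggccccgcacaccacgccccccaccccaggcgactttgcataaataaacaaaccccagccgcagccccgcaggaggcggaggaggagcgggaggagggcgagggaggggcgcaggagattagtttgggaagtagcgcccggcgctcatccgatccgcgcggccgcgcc

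The stretches differed in composition. The Col13a1 stretch was 68.8% G and C with 24 CpG dinucleotides, the Col25a1 stretch 60.4% with 18, the Col4a5 stretch 52.3% with 8 and the Col4a6 stretch 47.6% with 3. The RefSeq promoter table held 38 windows for 35 of the 44 genes. A GC box stood in the 250 upstream bases of 22 of these 38 windows (57.9%) and of 32.7% of all 32851 windows. A CCAAT box stood in 34.2% and 33.8%, and a TATA box in 13.2% and 12.4%. A match says that these letters are present, not that a factor binds there.

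Outside the basement membrane genes, the largest change in absolute level in total RNA was that of Col2a1, of the fibril-forming class. Col2a1 encodes the main fibril chain of cartilage. It measured 5.50, 5.64 and 6.98 TMM CPM in ESC total RNA and 81.1, 74.1 and 80.3 in EpiLC total RNA. The 4sU libraries gave 3.88, 3.22 and 5.15 TMM CPM in ESCs and 11.1, 11.9 and 9.20 in EpiLCs. The groups did not overlap in either assay, but the distance between them was far larger in total RNA: the log2 change was 3.73 ± 0.12 (SE) for mRNA and 1.45 ± 0.25 for nascent RNA. Per length, Col2a1 moved from rank 10 of the collagens in ESC total RNA (1.18 ± 0.160 TMM CPM per kb) to rank 3 in EpiLC total RNA (15.4 ± 0.753).

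The type XI chains co-assemble with type II in cartilage fibrils. Col11a1 measured 6.78, 4.43 and 5.50 TMM CPM in ESC total RNA and 13.3, 9.19 and 10.2 in EpiLC total RNA. In 4sU RNA it measured 3.27, 1.43 and 1.63 TMM CPM in ESCs and 7.54, 7.42 and 4.75 in EpiLCs. Both assays separated the cell types, and only the nascent change, 1.69 ± 0.43 on the log2 scale, was called. The mRNA change of 0.97 ± 0.20 missed the fold threshold and passed it when any 1 of 3 total libraries (ESC replicate 1, EpiLC replicate 2 or 3) was left out. Col11a2 was the reverse of most collagens in that its 4sU level exceeded its total level: 3.07, 1.43 and 3.25 TMM CPM in ESC 4sU and 21.2, 8.27 and 6.23 in EpiLC 4sU. In total RNA Col11a2 measured 0.869, 0.654 and 0.983 TMM CPM in ESCs and 4.02, 2.18 and 2.29 in EpiLCs. EpiLC libraries were the higher ones throughout, by 1.71 ± 0.52 for mRNA and 2.13 ± 0.51 for nascent RNA on the log2 scale.

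Col27a1, a fibrillar collagen of cartilage, shared the excess of 4sU over total RNA. Its total level was 3.30, 1.71 and 3.44 TMM CPM in ESCs and 6.25, 8.05 and 6.36 in EpiLCs. Its 4sU level was 9.40, 6.80 and 10.6 TMM CPM in ESCs and 13.4, 11.2 and 10.1 in EpiLCs, with overlap. The mRNA change of 1.42 ± 0.25 was called and the nascent change of 0.43 ± 0.27 was not.

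Type I and type III collagens, the fibres of skin, bone and vessels, were weak in both cell types. Col1a2 had 3, 2 and 2 reads in the ESC total libraries and 45, 43 and 37 in those of EpiLCs. In 4sU RNA it had 1 read over the ESC libraries and 7, 5 and 2 in EpiLCs. No library overlapped, the mRNA change was 4.57 ± 0.45 on the log2 scale, and the pooled nascent ratio was 16.1 with an exact 95% interval of 2.45 to 680. Its partner Col1a1 was under the filter, with 8 to 10 reads per ESC total library and 13 to 28 per EpiLC total library (ratio 3.14, interval 1.96 to 5.14). In 4sU RNA Col1a1 had 12 and 9 reads in all, a ratio of 0.862 with an interval of 0.321 to 2.23 that spans 1. Col3a1 had 1 read in ESC total and 19 in EpiLC total RNA (ratio 30.4, interval 4.83 to 1262).

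Type V collagen starts and narrows type I fibrils, and its main chain changed least. Col5a1 measured 41.8, 42.9 and 64.3 TMM CPM in ESC total RNA and 47.3, 47.8 and 48.4 in EpiLC total RNA. Its nascent level was 13.9, 11.4 and 16 TMM CPM in ESCs and 16.7, 13.6 and 12.8 in EpiLCs. The ESC replicate 3 library alone lay above the EpiLC range in total RNA, and the mRNA change of -0.004 ± 0.14 on the log2 scale was not called and took either sign with the scaling. Its partner Col5a2 was under the filter with 38 reads in ESC total and 123 in EpiLC total RNA (ratio 5.18, interval 3.57 to 7.66, and 8.13, interval 4.99 to 13.96, without the ESC replicate 3 library) and with 1 and 20 reads in 4sU RNA (ratio 23.0, interval 3.68 to 953). The remaining chain, Col5a3, had 243 reads in ESC total and 87 in EpiLC total RNA, and its mRNA change of -0.76 ± 0.35 did not pass the test (limma-voom adjusted p = 0.0691). Col24a1 had 4 and 39 reads in total RNA (ratio 15.6, interval 5.63 to 60.1) and 3 and 36 in 4sU RNA (ratio 13.8, interval 4.36 to 70.0).

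Fibroblasts and cartilage make most of these fibrillar collagens in the body, so lists of their markers that hold no collagen were measured in the same libraries, of which the fibroblast list shares Dcn, Loxl1 and Mmp2 with the lists of collagen partners used further on. The 15 fibroblast markers summed to 92.2 to 106 TMM CPM in ESC total and 135 to 149 in EpiLC total RNA, and to 48.5 to 58.9 and 52.5 to 55.5 in 4sU RNA. The marker highest in EpiLC total RNA, Mmp2, went from 11.8 ± 0.788 in ESC total to 54.4 ± 2.18 TMM CPM. The marker highest in ESC total RNA, Fbln1, went from 61.7 ± 10.9 to 37.9 ± 3.26. Of these 15, 9 were kept, with 4 higher and 1 lower for mRNA, beside 16.3% and 11.2% of all genes kept. Fap and S100a4 had 0 reads in every library. The 12 chondrogenic markers summed to 29.6 to 33.1 TMM CPM in ESC total and 46.5 to 54.8 in EpiLC total RNA, with Cnmd at 0. Of these 12, 4 were kept, with 3 higher for mRNA, beside 16.3% of all genes kept. The marker highest in total RNA of both cell types, Acan, went down, from 21.6 ± 1.61 to 17.75 ± 1.52 TMM CPM. In 4sU RNA Acan went from 7.57 ± 1.2 to 4.1 ± 1.4. Matn1, under the filter, went from 1.61 ± 0.16 to 0.134 ± 0.0489 in total RNA. The 15 markers of primitive endoderm, a maker of type IV collagen, summed to 139 to 180 TMM CPM in ESC total and 45.3 to 46.3 in EpiLC total RNA. Lama1 accounted for this fall of the sum (138 ± 21.3 to 11.4 ± 0.395). The sum of the other 14, taken after these values were seen, went up, from 11.8 to 16.8 TMM CPM in ESC total to 33.7 to 34.7 in EpiLC total RNA and from 19.1 to 21.1 to 35.9 to 48.3 in 4sU RNA. Single genes of those 14 went both ways in total RNA. Dab2 (0.648 ± 0.726 to 11.1 ± 1.05) and Pth1r (0.559 ± 0.157 to 9.34 ± 0.697) rose. Hnf4a (3.88 ± 0.982 to 0) and Sox17 (1.63 ± 0.543 to 0.0663 ± 0.115) fell. Of the 15, 7 were kept, with 3 higher and 3 lower for mRNA, and Afp was at 0. The part of such cells in the collagen changes was not tested.

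Among the fibril-associated collagens, the chains of type IX, which coat type II fibrils, moved in opposite directions. Col9a2 measured 28.4, 28.2 and 36.5 TMM CPM in ESC total RNA and 10.7, 8.72 and 7.16 in EpiLC total RNA. The 4sU libraries gave 7.57, 4.83 and 10.03 TMM CPM in ESCs and 0.943, 2.97 and 1.78 in EpiLCs. Every EpiLC library was below every ESC library in both assays, and the log2 change was -1.80 ± 0.19 for mRNA and -1.90 ± 0.50 for nascent RNA. Col9a3 measured 7.36, 8.35 and 3.83 TMM CPM in ESC total RNA and 15.7, 15.0 and 13.02 in EpiLC total RNA. In 4sU RNA it measured 3.68, 3.04 and 4.61 TMM CPM in ESCs and 4.48, 2.97 and 3.26 in EpiLCs. Only total RNA separated the cell types: the mRNA change was 1.12 ± 0.20, and the nascent change of -0.04 ± 0.46 took either sign with the scaling. Without the ESC replicate 3 libraries the Col9a3 mRNA change was 0.87, under the fold threshold. Col9a3 overlaps Tcfl5 on the opposite strand, which strand-specific counting keeps apart. Col9a1 had 1 and 17 reads in total RNA (ratio 27.2, interval 4.26 to 1136).

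Col22a1, found at tissue junctions such as that of muscle and tendon, measured 2.26, 2.92 and 2.95 TMM CPM in ESC total RNA and 7.03, 7.49 and 6.76 in EpiLC total RNA. Its nascent level was 3.07, 1.79 and 3.52 TMM CPM in ESCs and 3.30, 4.24 and 3.26 in EpiLCs. The cell types were apart in total RNA (log2 change 1.40 ± 0.18) and overlapped in 4sU RNA (0.47 ± 0.32, not called). Of the fibril-associated collagens under the filter, Col12a1 had 9 and 65 reads in ESC and EpiLC total RNA (ratio 11.6, interval 5.72 to 26.4), Col14a1 21 and 31 (ratio 2.36, interval 1.31 to 4.32) and Col16a1 83 and 103 (ratio 1.99, interval 1.47 to 2.68). Col20a1 was lower, with 61 and 15 reads in total RNA (ratio 0.393, interval 0.208 to 0.700) and 64 and 26 in 4sU RNA (ratio 0.467, interval 0.284 to 0.747). Another gene on the same strand shares part of Col20a1, so its counts are uncertain. Col19a1 had 0 and 3 reads in total RNA, which gives no ratio.

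Type VI collagen forms beaded filaments from different chains, and its chains did not move together. Col6a2 had 3, 4 and 3 reads in the ESC total libraries and 43, 40 and 47 in those of EpiLCs. In 4sU RNA it had 3, 1 and 0 reads in ESCs and 15, 14 and 12 in EpiLCs. The groups were apart in both assays, by 4.19 ± 0.41 for mRNA and 3.54 ± 0.52 for nascent RNA on the log2 scale. Col6a1, its tandem neighbour on chromosome 10, had 7 and 22 reads in total RNA (ratio 5.03, interval 2.07 to 13.9). Col6a3 fell on pooled reads, from 71 to 9 (ratio 0.203, interval 0.0891 to 0.407), with 38 of the 71 in the ESC replicate 3 library, without which the ratio was 0.342 (interval 0.144 to 0.731). Col6a5 also fell, from 182 to 56 reads (ratio 0.492, interval 0.358 to 0.667), while the intervals of Col6a4 (0.463 to 1.35) and Col6a6 (0.537 to 6.72), which lie beside it on chromosome 9, spanned 1.

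The short-chain collagens form hexagonal networks, as in the cornea. Col8a2 measured 1.33, 1.66 and 0.491 TMM CPM in ESC total RNA and 7.47, 7.39 and 8.05 in EpiLC total RNA. The 4sU libraries gave 1.43, 0.716 and 0.271 TMM CPM in ESCs and 0.943, 1.48 and 1.78 in EpiLCs. Total RNA separated the cell types (log2 change 2.69 ± 0.31) and 4sU RNA, with 1 to 7 reads per library, did not (0.83 ± 0.62, not called). Col8a1 had 3 and 17 reads in total RNA (ratio 9.06, interval 2.62 to 48.3). Col10a1, a marker of hypertrophic cartilage, had 1 read in all 12 libraries.

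Single membrane-bound collagens went both ways. All 3 that were kept passed the filter through 1 cell type only, Col25a1 through EpiLCs and Col13a1 and Col17a1 through ESCs. Passing in this way favours a difference in that direction, so their directions are not evidence about the class. Col25a1, a transmembrane collagen of neurons, had 3, 1 and 0 reads in the ESC total libraries and 31, 35 and 33 in those of EpiLCs. In 4sU RNA it had 1 read over the ESC libraries and 7, 14 and 7 in EpiLCs. The mRNA change was 5.22 ± 0.54 on the log2 scale, and the pooled nascent ratio was 32.2 with an exact 95% interval of 5.32 to 1316. Such fitted changes from counts near 0 depend on the prior count and are not bounds. Col25a1 also holds 4 same-strand entries with 32 reads, beside 132 reads of its own, and their part in its counts was not tested.

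Col13a1, a transmembrane collagen of the neuromuscular junction and other cell contacts, fell in both assays. It measured 7.36, 7.60 and 7.18 TMM CPM in ESC total RNA and 0.669, 1.71 and 0.994 in EpiLC total RNA. In 4sU RNA it measured 8.38, 6.08 and 4.61 TMM CPM in ESCs and 0.943, 0.212 and 0 in EpiLCs, the last with no read. The groups were far apart in both assays, by -2.73 ± 0.35 for mRNA and -4.12 ± 0.60 for nascent RNA on the log2 scale. Col17a1, the collagen of hemidesmosomes that fixes epithelia to the basement membrane, measured 7.30, 6.24 and 14.4 TMM CPM in ESC total RNA and 1.12, 1.80 and 1.09 in EpiLC total RNA. Its nascent level was 2.66, 4.12 and 7.32 TMM CPM in ESCs and 0.471, 1.69 and 0.890 in EpiLCs. No library crossed, and the change was -2.57 ± 0.48 for mRNA and -2.02 ± 0.77 for nascent RNA on the log2 scale. Its nascent call was lost when any of 5 4sU libraries was left out, with log2 changes of -2.46 to -1.51 over all libraries left out in turn. Col23a1, had 17 and 30 reads in total RNA (ratio 2.82, interval 1.51 to 5.46).

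Of the remaining types, Col26a1 fell. It measured 8.46, 9.66 and 17.7 TMM CPM in ESC total RNA and 2.12, 1.80 and 2.09 in EpiLC total RNA. The 4sU libraries gave 2.45, 3.40 and 5.69 TMM CPM in ESCs and 1.18, 0.636 and 0.297 in EpiLCs. The groups stayed apart, by -2.39 ± 0.38 for mRNA and -2.23 ± 0.77 for nascent RNA on the log2 scale, and the nascent call was lost when any of 3 4sU libraries (ESC replicate 3, EpiLC replicates 2 and 3) was left out. Col7a1, which forms the anchoring fibrils of skin, had 277 reads in ESC total and 341 in EpiLC total RNA, and its mRNA change of 0.98 ± 0.18 missed the fold threshold. The nascent change of Col7a1, 0.90 ± 0.34, passed it without the ESC replicate 3 libraries (1.09). Col28a1 had 2 and 11 reads in total RNA (ratio 8.80, interval 1.92 to 81.7). Over all 23 genes under the filter, the interval of the total RNA ratio lay above 1 for 14, below 1 for 3 and across 1 for 2, and 4 had too few reads in both cell types for a ratio. These intervals cover counting error only and leave out the spread between libraries. The share among other genes under the filter is not given here, so these counts are not evidence about the family. The member nearest the filter from below was Col5a2, whose level with rank 3 among the libraries was 2.75 CPM, and the nearest from above was Col25a1 at 3.21 CPM.

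**Figure D2:**
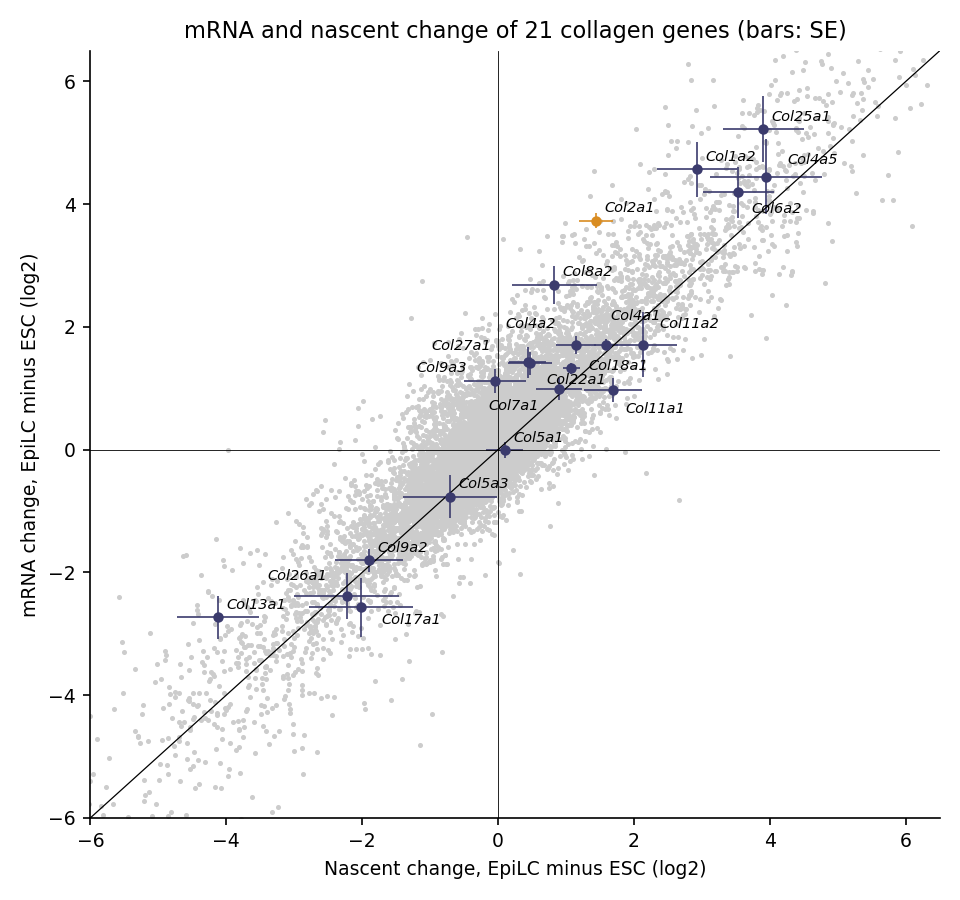
mRNA change against nascent change (both log2, EpiLC minus ESC) for the 21 collagen genes that passed the filter, with SE bars, over all 14731 genes kept (grey, of which 112 lie outside the axes); the line marks equal change. Col2a1, in orange, is the only collagen gene with a called stability change, at 3.73 for mRNA and 1.45 for nascent RNA, and Col13a1, Col9a2, Col17a1 and Col26a1 lie at the lower left.

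Subtracting the nascent change from the mRNA change gave the mRNA stability change, the interaction of cell type and assay. Reading it as stability rests on the study's assumption that mRNA levels within a state are steady. EpiLCs were collected about 56 h after LIF/2i medium was taken away, and whether their levels were steady was not tested. Of the 21 collagen genes, Col2a1 was called higher, where 1.24% of all genes kept were. With each culture as a replicate block, Col8a2 was called as well (1.93, limma-voom adjusted p = 0.0346). No collagen gene was called lower by limma-voom, where 0.305% of all genes were, nor by edgeR or DESeq2, and none had a fall with an unadjusted p below 0.05. By adjusted p alone, where 4.6% of all genes passed, Col2a1 was again the only one. The relative stability of Col2a1, log2 of total over 4sU, was 0.473, 0.775 and 0.411 in the ESC cultures and 2.86, 2.63 and 3.10 in the EpiLC cultures. Here a culture means the total and 4sU libraries that share a number, and the labels do not say that these came from the same culture. The increase for Col2a1 in the fit without such pairing was 2.29 ± 0.28 on the log2 scale (limma-voom adjusted p = 0.00127), and the call held whichever of the 12 libraries was left out. Without the ESC replicate 3 libraries, Col8a2 (1.93, adjusted p = 0.0164, limma-voom) and Col27a1 (1.02, adjusted p = 0.0493, limma-voom) were called as well. With all libraries they were 1.86 ± 0.70 and 0.99 ± 0.37, at adjusted p = 0.129 and 0.131 (limma-voom). Unadjusted p was below 0.05 for both, and for Col1a2 (0.0431), Col9a3 (0.0349) and Col22a1 (0.0249). Col8a2 and Col1a2 passed the filter only through EpiLC total libraries, which favours a rise of this kind.

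Within each cell type, collagen mRNAs spanned a wide range of relative stability. The 21 genes ran from -1.75 to 2.41 in ESCs and from -1.97 to 2.85 in EpiLCs. Their medians were 0.84 and 1.60, and those of all protein-coding genes kept were 0.30 and 0.37. The EpiLC median rests on single libraries: taken over the median of all genes it was 1.46 with all libraries (0.81 in ESCs) but 0.903 without the EpiLC 4sU replicate 3 library and 0.932 without the EpiLC total replicate 2 library. By culture the same difference was 0.963, 1.04 and 0.695 in ESCs and 0.910, 1.38 and 1.75 in EpiLCs, which overlap. In ESCs 14 lay above the median of coding genes, and in EpiLCs 18 did. Of the 21, Col1a2, Col4a5 and Col8a2 passed the filter only through EpiLC total libraries. Passing in this way favours a high EpiLC ratio (1.85, 1.92 and 2.39), so the EpiLC median and count are not evidence about the family. Among the 21, relative stability followed the mean total level (Spearman's rho over 21 genes 0.79 in ESCs and 0.63 in EpiLCs), a description of values that share their total libraries. The part of level in the position of the family was not tested.

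The basement membrane mRNAs were high in both cell types. Col4a1 had a relative stability of 2.41 ± 0.16 (SE) in ESCs and 2.53 ± 0.12 in EpiLCs, above 97.8% and 98.6% of coding genes. Col18a1 had 2.40 ± 0.11 and 2.65 ± 0.10, above 97.7% and 99.0%. At the other end were Col11a2 at -1.56 ± 0.61 and -1.97 ± 0.41 and Col27a1 at -1.75 ± 0.28 and -0.76 ± 0.25. They were the only genes of the 21 whose mean 4sU level exceeded their mean total level in both cell types, and they lay above 8.53% and 3.49% (Col11a2) and 6.88% and 17.1% (Col27a1) of coding genes. Relative stability was unrelated to exonic length in ESCs (rho -0.07) and weakly negative in EpiLCs (rho -0.32), both over 21 genes as a description.

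**Figure D3:**
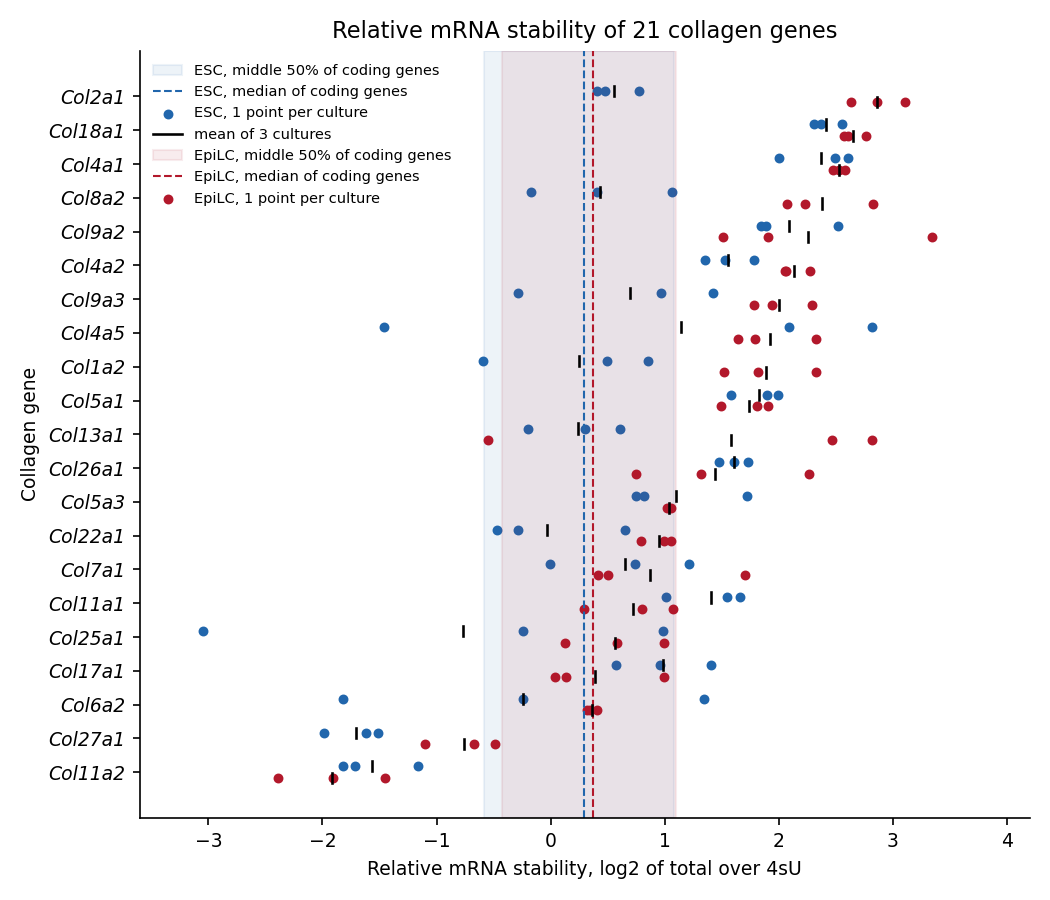
Relative mRNA stability (log2 of total over 4sU) of the 21 collagen genes in each culture, ESC in blue and EpiLC in red, black ticks for the mean of 3 cultures, shading for the middle 50% and dashed lines for the median of coding genes. Col18a1 and Col4a1 lie beyond the shading in both cell types, Col2a1 only in EpiLCs, and the wide spreads of Col4a5, Col25a1 and Col13a1 include libraries with 0 reads.

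Partner chains of a type were compared per exonic length within each library, which removes the scaling between libraries. The ratio of Col4a1 to Col4a2, whose protein chains join in the proportion 2 to 1, was 2.31 ± 0.438 in ESC total and 2.33 ± 0.124 in EpiLC total RNA. In 4sU RNA the ratio was 1.23, 1.35 and 1.32 in ESCs and 1.66, 1.72 and 1.98 in EpiLCs, so the nascent ratio was lower in every ESC library while the total ratio overlapped. The ratio of Col1a1 to Col1a2 went from 2.41, 4.51 and 4.51 in ESC total to 0.281, 0.587 and 0.317 in EpiLC total RNA. That of Col5a1 to Col5a2 went from 52.5 ± 22.1 to 9.80 ± 3.32. Neither pair overlapped between the cell types.

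Ratios among genes for the chains of cartilage fibrils differed between the cell types in total RNA as well. The ratio of Col11a1 to Col2a1 was 0.623 ± 0.171 in ESC total and 0.0921 ± 0.0146 in EpiLC total RNA, but 0.356 ± 0.183 and 0.404 ± 0.0557 in 4sU RNA, where the libraries overlapped. The ratio of Col9a2 to Col9a3 was 4.02, 3.52 and 9.91 in ESC total and 0.709, 0.607 and 0.573 in EpiLC total RNA. The ESC mean was 5.82 with all libraries and 3.77 without replicate 3. Col6a2 to Col6a3 rose from 0.313 ± 0.157 to 31.9 ± 15.2 in total RNA. Over 11 combinations of pair and assay with reads in every library, 8 did not overlap, each at an exact two-sided permutation p of 0.1 (0.138 after adjustment over the 11), which is the smallest that 3 libraries against 3 allow.

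**Figure D4:**
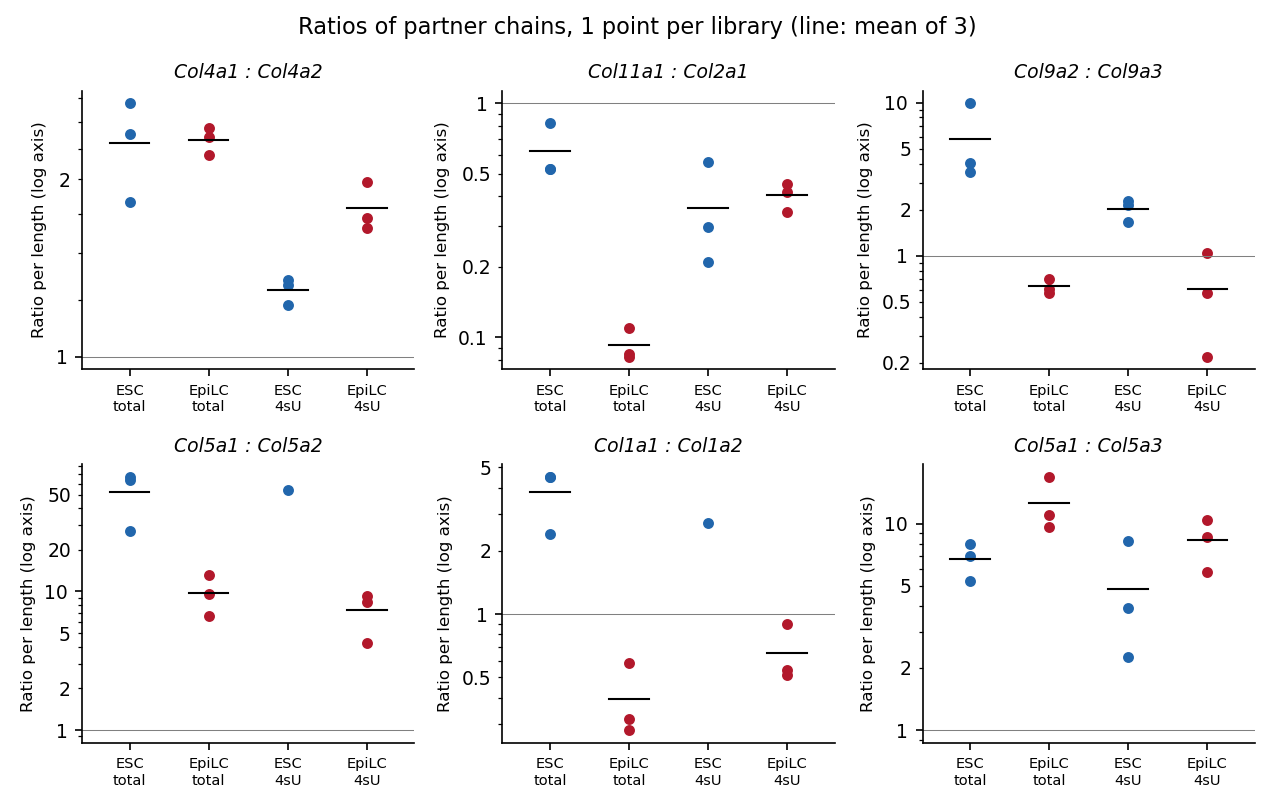
Ratios of partner chains per exonic length in each library (log axis; black line, mean of 3; libraries with 0 reads of a chain are not drawn). Col4a1 to Col4a2 is near 2.3 in total RNA of both cell types and lower in ESC 4sU RNA, and the ratios Col11a1 to Col2a1, Col9a2 to Col9a3, Col5a1 to Col5a2 and Col1a1 to Col1a2 are lower in EpiLC total RNA.

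Per exonic length, the order of total RNA levels also differed. In ESCs Col18a1 led with 50.7 ± 4.79 TMM CPM per kb, followed by Col9a2 (10.6 ± 1.61) and Col4a1 (9.23 ± 0.758), whose libraries overlapped, and by Col5a1 (5.91 ± 1.51), Col26a1 (4.28 ± 1.80) and Col4a2 (4.15 ± 1.201), of which neighbours overlapped. In EpiLCs Col18a1 (127 ± 5.39), Col4a1 (30.1 ± 1.142), Col2a1 (15.4 ± 0.753), Col4a2 (12.9 ± 0.511), Col5a1 (5.69 ± 0.0659), Col9a3 (4.79 ± 0.459) and Col9a2 (3.03 ± 0.609) followed each other without overlap between neighbours. Collagen genes are built of many small exons: the 44 genes had a median of 48 exon blocks, where the 21793 protein-coding genes of the table had 7, and a median span of 114 kb, where those had 16.5.

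The enzymes and partners of collagen were measured with the same fit in 4 lists of 68 genes, of which 52 were kept. Over the lists 23 were called higher and 13 lower for mRNA, beside 16.3% and 11.2% of all genes, and 23 and 12 for nascent RNA, beside 11.9% and 13.5%. As for the collagens, these counts are not evidence about the lists, since 13 of the 52 passed the filter only through EpiLC libraries, 11 of them called higher for mRNA, and 2 only through ESC libraries, both called lower. Of the 37 that passed through both cell types, 12 were called higher and 11 lower. Of the 18 kept genes for folding and export, 3 were higher and 4 lower for mRNA. The rises were led by the prolyl 3-hydroxylase P3h2 (5.77 ± 0.53), the prolyl 4-hydroxylase subunit P4ha2 (1.52 ± 0.15) and the chaperone Fkbp10 (1.44 ± 0.12), on the log2 scale. The falls were Fkbp14 (-2.49 ± 0.23), the prolyl 3-hydroxylase P3h1 (-2.11 ± 0.098), the lysyl hydroxylase Plod1 (-1.61 ± 0.089) and Crtap (-1.199 ± 0.12), the partner of P3h1. P3h1 and P3h2, which hydroxylate the same kind of residue, thus moved in opposite directions. P3h2 passed the filter only through EpiLC libraries. It had 0 to 5 reads per ESC total library, so its fitted change depends on the prior count.

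In processing and cross-linking, 8 of 13 kept genes were called higher and 3 lower, and 6 of the 8 had passed the filter only through EpiLC libraries. The cross-linking enzymes Lox (6.81 ± 0.47) and Loxl2 (3.11 ± 0.24) and the propeptide protease Adamts3 (3.50 ± 0.35) rose most on the log2 scale. Lox had 1 to 2 and Adamts3 2 to 11 reads per ESC total library, so their fitted changes depend on the prior count. The enhancers of propeptide cleavage, Pcolce (-2.997 ± 0.28) and Pcolce2 (-1.78 ± 0.15), and the protease Adamts14 (-1.31 ± 0.19) fell. Of the 8 kept receptors and turnover genes, 7 were called higher for mRNA and 1 lower, beside 16.3% and 11.2% of all genes. Of the 7, 2 had passed only through EpiLC libraries. Rises included the collagen-binding integrin subunit Itga1 (3.79 ± 0.41), the endocytic receptor Mrc2 (3.58 ± 0.20) and the receptor kinase Ddr1 (2.60 ± 0.11). The protease inhibitor Timp1 fell (-2.52 ± 0.13). Under the filter, the receptor Ddr2 had 5.73 ± 5.96 TMM CPM in ESC total and 0.376 ± 0.0831 in EpiLC total RNA. Itga10 had 2.92 ± 0.427 and 0.301 ± 0.286, and Mmp9 1.18 ± 0.0787 and 2.54 ± 0.147. The other genes of the list under the filter had few reads.

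Of 13 kept genes for matrix proteins that lie beside collagens, 5 were called higher and 5 lower for mRNA, beside 16.3% and 11.2% of all genes. Of the 5 higher, 2 had passed the filter only through EpiLC libraries. Of the 11 that passed through both cell types, 3 were called higher and 5 lower. Decorin (Dcn), which binds fibrils, had 0 reads in the 6 ESC libraries, 40 to 56 per EpiLC total library (4.81 ± 0.439 TMM CPM) and 6 to 8 per EpiLC 4sU library. The fibrillins Fbn2 (3.88 ± 0.17) and Fbn1 (2.26 ± 0.12) rose as well. Basement membrane partners of type IV collagen went both ways. The laminin chains Lama5 (1.00 ± 0.12) and Lamb1 (1.71 ± 0.074) rose. The falls included the nidogens Nid1 (-3.73 ± 0.32) and Nid2 (-1.63 ± 0.11), the laminin chains Lama1 (-3.57 ± 0.18) and Lamc1 (-1.69 ± 0.14) and fibronectin, Fn1 (-2.54 ± 0.14). For stability, 1 of the 52 was called higher, Dcn, whose fitted ESC value rests on 0 reads and the prior count, and 1 lower, the collagen chaperone Serpinh1, also known as HSP47. With the quasi-likelihood test of edgeR the Dcn change was 1.55 and not called (adjusted p = 1.0), and DESeq2 gave it no adjusted p. Serpinh1 mRNA stayed within the fold threshold (0.34 on the log2 scale) while its nascent RNA rose by 1.38 ± 0.14, from 29.1 to 75.7 TMM CPM, and the stability change was -1.03 ± 0.17 (limma-voom adjusted p = 0.00565). Without the EpiLC total replicate 2 library, or with library totals as the scale, it was -0.97, within the fold threshold.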

How the data were processed

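RNA from ESC and EpiLC cultures was measured as 4sU-selected and as total RNA, in 3 libraries for each of 4 groups assigned from the sample labels. The authors trimmed 50-base single-end reads (cutadapt 1.14), aligned them to mm10 (STAR 2.5.3a, unique alignments) and deposited strand-specific read counts per GENCODE gene (featureCounts 1.5.3). Kits were of 2 kinds, and which library used which is not given in the sources used here. There were 0 columns of other samples, and the 92 spike-in entries, which had 0 reads, were left out. Median depth was 4169803 reads for 4sU and 10971213 for total libraries. Without molecular identifiers, reads are not independent molecules.

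Symbols came from a later GENCODE release, which held 99.6% of the gene IDs. The filter kept genes that reached 3 CPM in 3 or more libraries. These were fitted with limma-voom in R 4.3.3 (package limma 3.58.1, with TMM factors from edgeR 4.0.16), 1 mean per group, with Benjamini-Hochberg adjustment over all 14731 genes kept. Genes under the filter were compared by pooled reads with exact 95% intervals and a floor of 3 counts (scipy 1.17.1). Scripts were tested on simulated data. Alternatives were median-of-ratios, library totals or within-assay scaling, quality weights, tests by DESeq2 1.42.0 or by edgeR's quasi-likelihood method, no filter, the adjusted p alone, replicate blocks, and leaving out libraries.

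The collagen genes and the lists of partners and markers were chosen with earlier results of these data known. Members called in any comparison, or kept with a mean of at least 10 CPM, were named with every library's value, and other members by reads. From each partner list, called genes with the largest mRNA changes were named, along with genes called for stability. Crtap, Lama5, Lamb1, Lamc1 and Nid2 were added after their values were seen.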

Additional observations from a re-analysis of the deposited data

Results flagged for a closer look

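Effects of cell type that differed between assays, by the interaction test of limma-voom, were flagged. Among the collagen genes this was Col2a1, whose stability change was 2.29 on the log2 scale. Among the 52 kept partner genes these were Dcn (3.22, resting on 0 reads in ESCs) and Serpinh1 (-1.03). Outliers were not tested in groups of 3.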

How the results depend on the processing

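With no filter, 26 collagen genes were called higher for mRNA and 17 for nascent RNA. Over all 32144 genes tested in that fit, 4241 were called higher for mRNA and 2848 for nascent RNA. Collagen stability calls (higher) were 2 with quality weights (Col27a1 at 1.03 joined Col2a1), 2 with a replicate block by culture (Col8a2 at 1.93 joined it) and 3 without both ESC replicate 3 libraries. For the partner genes, stability calls higher were 2 with library totals, 0 with edgeR, 0 with DESeq2 (which gave Dcn no adjusted p), 2 with quality weights, 3 by adjusted p alone and 2 without both ESC replicate 3 libraries, and calls lower were 0, 1, 2, 2, 3 and 2. The Col5a1 mRNA change was 0.086 with library totals, 0.002 with TMM within each assay, 0.15 with quality weights and 0.17 without both ESC replicate 3 libraries, and the Col9a3 nascent change was 0.015 with median-of-ratios, 0.02 with TMM within each assay, 0.008 with quality weights and 0.061 without those libraries. The cause was not tested. For the 32 called member results, 318 values under the other settings kept direction and call, and 3 kept direction only. The setting by adjusted p alone is among these and could not lose a call, because it only drops the fold threshold. With each library left out in turn, 360 values kept direction and call, and 9 kept direction only.

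Leaving out each library in turn gave 10 to 14 collagen genes higher for mRNA and 4 to 4 lower, 8 to 11 higher and 2 to 4 lower for nascent RNA, and 1 higher for stability. Partner genes gave 21 to 25 higher and 13 lower for mRNA, 22 to 24 and 10 to 13 for nascent RNA, and 0 to 2 and 0 to 2 for stability. The median relative stability of the collagen genes over that of all genes ranged from 0.593 to 0.906 in ESCs and from 0.903 to 1.64 in EpiLCs. The Col5a1 mRNA change ranged from -0.13 to 0.17, its nascent change from -0.001 to 0.25 and the Col9a3 nascent change from -0.16 to 0.15. Col1a2, Col4a5, Col8a2 and Dcn fell under the filter whenever an EpiLC total library was left out.

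With the replicate number as a block, collagen counts were 13 and 4 for mRNA, 10 and 4 for nascent RNA and 1 and 0 for stability, and partner stability calls lower were 2, as with the culture block. Same-numbered 4sU and total libraries had correlated deviations of 0.16 to 0.41 in ESCs and 0.02 to 0.07 in EpiLCs, and same-numbered ESC and EpiLC libraries of -0.08 to -0.01, so these share only a number.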
